A study of Homo sapiens with 15 samples.

Results

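The 35 genes described here encode the enzymes and regulators of cholesterol and fatty acid synthesis, with 3 genes of cholesterol efflux and uptake control. They were chosen by symbol and found among the 61552 genes of the counts table, each under 1 Ensembl ID. Of these, 7 act in the mevalonate steps, 11 in the squalene and sterol steps, 5 regulate the pathway or carry sterol, 9 make or modify fatty acids, and 3 (ABCA1, ABCG1 and MYLIP) serve efflux and uptake control. All 35 passed the filter on low counts in every main fit.

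Cells make cholesterol from acetyl-CoA through mevalonate, squalene and lanosterol, and they make fatty acids from the same acetyl-CoA through malonyl-CoA. Transcription of both branches is driven by the SREBP factors, which SCAP carries from the endoplasmic reticulum to the Golgi when sterols are low and which INSIG proteins hold back when sterols are high. When sterols accumulate, the liver X receptors (LXRs) induce the exporters ABCA1 and ABCG1 and the ubiquitin ligase MYLIP, which limits lipoprotein uptake. Growth factor signalling through EGFR is known to raise SREBP activity in cancer cells.

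RNA was sequenced from MDA-MB-468, an established human basal-like breast cancer line that carries very many copies of EGFR, in 5 groups of 3 libraries. In the drug experiment, cells were starved of serum for 12 h and then kept for 12 h with 10 ng/mL EGF alone (labelled EGF), with EGF and 10 µM cSNX1.3 (cSNX), a peptide that blocks binding of EGFR to Sorting Nexin 1 and so its nuclear entry, or with EGF and 15 µM erlotinib (ERL), a small molecule that inhibits the EGFR kinase. In the line experiment, both groups carried an IPTG-inducible lentiviral shRNA against endogenous EGFR and were given EGF. They were transfected with EGFR-GFP that was wildtype (shEGFR-WT, the WT line) or had 2 arginines and 1 lysine of its nuclear localization signal changed to aspartic acid (shEGFR-NLS, the ΔNLS line). The EGF dose and time for the lines, and whether either line is 1 clone, are not given in the sources used here. Nothing states that replicates were separate cultures, so p-values measure only the spread between these libraries, which may be technical.

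Libraries held 22915676 to 35900649 counts. Levels are given as CPM, the counts of a gene relative to the library total after scaling by edgeR's TMM method, and differences as log2 fold changes with a standard error (SE). A gene was called when edgeR's quasi-likelihood test gave it a Benjamini-Hochberg adjusted p under 0.05 over all genes tested. EGFR stood at 4914, 4315 and 4960.1 CPM in the EGF libraries, 5756, 6498 and 6162 with cSNX1.3, 4561, 4989 and 4564 with erlotinib, 1423, 1146 and 1449 in the WT line and 1687, 1745 and 1745 in the ΔNLS line. Introduced and endogenous EGFR are counted on the same gene, so these values do not check the knockdown alone. EPCAM, KRT5, KRT6A, KRT17, KRT8 and CDH3, epithelial genes looked for in this basal-like line, were present in every library. KRT6A was lowest with erlotinib, at 37.5, 28.3 and 26.7 CPM against 576, 804 and 562 with EGF. ESR1, which was looked for at or near 0, was between 2.79 and 8.41 CPM. The 9 markers of leukocytes, fibroblasts, endothelium and fat cells summed to 13.1 to 23.8 CPM, most of it COL1A1 and, in the lines, PECAM1. Without COL1A1 the sum was 1.37 to 6.1 CPM, and ADIPOQ and KLRD1 were at 0 in every library. In bulk RNA, less RNA per cell and fewer cells with the transcript cannot be told apart. Where a sentence gives 3 values for each of several groups, they are replicates 1, 2 and 3, with the control first.

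Promoter windows from RefSeq (GRCh38.p14, 250 bases before to 50 after the start) were found for 29 of the 35 members within 1000 bases of the canonical start. No window of ACAT2, FDFT1, SQLE, FASN, ABCG1 or FADS2 was used. FDFT1 and SQLE lie on a chromosome that was left out of the search for member windows. Whether they have a window near the start was therefore not tested, and the counts of sterol step windows omit both. The set of all windows was not limited in this way. Each window was searched on both strands for CCAAT, the box bound by the SREBP partner NF-Y, and overlapping matches were counted separately. It was present in 19 of 29 member windows (65.5%), against 34.6% of all 35116 windows of this length. Among windows of the sterol and mevalonate steps 13 of 15 (86.7%) held it, and among those of fatty acid genes 2 of 7 (28.6%). The core of the sterol response element, TCACNCCAC, was found in 1 member window, that of SREBF2, and in 1.13% of all windows. Only this exact string was searched. Variants of the element, and elements outside the windows, were not looked for, so a window without a match does not show that the gene lacks one. The excess over all windows was not confined to CCAAT. The GC box, GGGCGG, was in 28 of 29 member windows (96.6%) against 45% of all windows. The E-box, CACGTG, was in 17.2% against 7.26%. A match is only a description of the letters in the window, not a bound site. By call in erlotinib vs. EGF, CCAAT was in 15 of 18 windows of lower genes, 1 of 3 of higher genes and 3 of 8 of genes not called. CYP51A1, LPIN1 and ELOVL6 were lower without the box, and MYLIP was higher with 2 boxes. The windows below are those of 4 genes that were lower with erlotinib and hold the box, followed by 2 without it. These 2 are SREBF1, which was higher with erlotinib, and ELOVL6, which was lower with erlotinib and had the largest fall in the ΔNLS line. Capitals mark CCAAT or its reverse complement ATTGG, and each is written 5′ to 3′ on the strand of the gene.
HMGCS1: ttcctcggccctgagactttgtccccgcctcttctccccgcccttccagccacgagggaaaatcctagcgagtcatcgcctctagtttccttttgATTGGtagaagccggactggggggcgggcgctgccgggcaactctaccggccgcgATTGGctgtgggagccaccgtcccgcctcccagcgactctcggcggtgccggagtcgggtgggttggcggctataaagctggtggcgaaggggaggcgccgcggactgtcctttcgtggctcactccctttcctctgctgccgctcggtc
NSDHL: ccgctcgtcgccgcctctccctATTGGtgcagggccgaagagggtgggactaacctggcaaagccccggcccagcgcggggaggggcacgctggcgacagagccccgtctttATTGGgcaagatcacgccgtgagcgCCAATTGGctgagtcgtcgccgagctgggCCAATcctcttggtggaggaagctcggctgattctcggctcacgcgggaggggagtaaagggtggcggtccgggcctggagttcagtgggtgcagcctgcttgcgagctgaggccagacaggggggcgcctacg
MSMO1: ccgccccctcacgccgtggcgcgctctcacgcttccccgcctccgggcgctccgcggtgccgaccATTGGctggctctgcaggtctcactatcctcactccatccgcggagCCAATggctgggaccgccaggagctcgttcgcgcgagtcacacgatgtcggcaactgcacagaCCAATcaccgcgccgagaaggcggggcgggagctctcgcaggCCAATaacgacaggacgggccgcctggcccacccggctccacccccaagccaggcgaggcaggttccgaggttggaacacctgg
ACLY: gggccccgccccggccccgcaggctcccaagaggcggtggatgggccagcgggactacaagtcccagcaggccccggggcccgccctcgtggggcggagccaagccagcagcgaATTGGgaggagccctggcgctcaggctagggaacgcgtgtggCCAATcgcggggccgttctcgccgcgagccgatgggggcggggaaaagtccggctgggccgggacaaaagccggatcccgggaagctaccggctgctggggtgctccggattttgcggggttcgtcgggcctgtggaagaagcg
SREBF1: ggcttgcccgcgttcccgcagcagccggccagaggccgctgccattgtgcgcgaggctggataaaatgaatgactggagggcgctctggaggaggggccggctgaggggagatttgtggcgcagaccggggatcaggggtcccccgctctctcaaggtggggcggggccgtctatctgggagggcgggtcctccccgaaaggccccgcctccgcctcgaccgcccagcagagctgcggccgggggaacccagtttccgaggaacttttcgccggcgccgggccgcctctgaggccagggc
ELOVL6: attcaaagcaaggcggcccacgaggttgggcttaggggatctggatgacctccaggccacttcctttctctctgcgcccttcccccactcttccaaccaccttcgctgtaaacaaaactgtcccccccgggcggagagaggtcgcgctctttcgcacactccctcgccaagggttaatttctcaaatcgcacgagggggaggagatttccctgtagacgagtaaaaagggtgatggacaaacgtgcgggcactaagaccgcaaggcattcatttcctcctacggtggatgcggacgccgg
These lie at chr5:43313363-43313662, - strand for HMGCS1, chrX:152830813-152831112, + strand for NSDHL, chr4:165327419-165327718, + strand for MSMO1, chr17:41918902-41919201, - strand for ACLY, chr17:17836937-17837236, - strand for SREBF1 and chr4:110198566-110198865, - strand for ELOVL6. HMGCS1 holds 2 boxes, NSDHL 5, MSMO1 4 and ACLY 2, where CCAATTGG in NSDHL counts once on each strand. Their Ensembl IDs are ENSG00000112972 (HMGCS1), ENSG00000147383 (NSDHL), ENSG00000052802 (MSMO1), ENSG00000131473 (ACLY), ENSG00000072310 (SREBF1) and ENSG00000170522 (ELOVL6).

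Erlotinib vs. EGF asked what inhibition of the EGFR kinase did to the pathway. Sterol synthesis genes fell: 16 of the 18 genes of the mevalonate, squalene and sterol steps were lower with erlotinib and none was higher, with a median log2 fold change of -0.62. Fatty acid genes were mixed, with 3 of 9 lower and 1 higher. Of the 3 genes of efflux and uptake control, the exporter ABCG1 and MYLIP were higher. Over all 35 members 21 were lower and 4 higher, with a median of -0.53. Of the 15738 genes tested 21.2% were called lower and 22.8% higher, and the median over them was 0.0082.

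Among the mevalonate genes, HMGCS1, the synthase that makes HMG-CoA, had the largest change. It stood at 807, 807 and 808 CPM in the EGF libraries and 262, 335 and 286 with erlotinib, 2.72-fold lower (log2 fold change -1.45, SE 0.10, edgeR adjusted p = 2.41e-08). The highest erlotinib library lay far below the lowest EGF library. MVK, mevalonate kinase, was at 119, 128 and 112 CPM with EGF and 72.8, 55.1 and 67.8 with erlotinib (log2 fold change -0.87, SE 0.10, edgeR adjusted p = 4.6e-06). MVD, the decarboxylase that yields isopentenyl diphosphate, was at 1100.2, 1111 and 1079.7 and 719.8, 541 and 632 CPM (log2 fold change -0.79, SE 0.11, edgeR adjusted p = 2.3e-05). Neither gene's groups overlapped. ACAT2, the cytosolic thiolase at the head of the pathway, IDI1, the isopentenyl diphosphate isomerase, and FDPS, farnesyl diphosphate synthase, also fell, by log2 fold changes of -0.54, -0.60 and -0.35. PMVK, phosphomevalonate kinase, was the one mevalonate gene not called, at 69.8 ± 5.63 CPM (SD, n = 3) with EGF and 80.7 ± 7.45 with erlotinib (log2 fold change 0.22, SE 0.10, edgeR adjusted p = 0.0794).

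In the squalene and sterol steps, NSDHL and HSD17B7, a dehydrogenase and a reductase that act in removal of the sterol C4 methyl groups, changed most. NSDHL was at 580.0, 704 and 549 CPM with EGF and 303, 258 and 241 with erlotinib (log2 fold change -1.18, SE 0.12, edgeR adjusted p = 1.62e-06). HSD17B7 was at 77.1, 83.2 and 77.2 and 37.5, 40.6 and 34.9 CPM (log2 fold change -1.06, SE 0.09, edgeR adjusted p = 9.4e-08). The levels were 2.27-fold and 2.09-fold lower, with no overlap between groups. MSMO1, the oxidase of the same demethylation, was at 373, 438 and 386 and 195, 249 and 212 CPM (log2 fold change -0.86, SE 0.12, edgeR adjusted p = 2.26e-05). The others called lower were SQLE, squalene epoxidase (-0.78), CYP51A1, lanosterol demethylase (-0.72), DHCR7, the last reductase of one branch (-0.63), FDFT1, squalene synthase (-0.53), SC5D, a sterol desaturase (-0.52), EBP, a sterol isomerase (-0.37), and LSS, lanosterol synthase (-0.29). TM7SF2, a sterol reductase of the endoplasmic reticulum, was not called, at 69.6, 76.8 and 69.9 CPM with EGF and 103, 69.2 and 76.9 with erlotinib (log2 fold change 0.21, SE 0.13, edgeR adjusted p = 0.18).

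**Figure D1:**
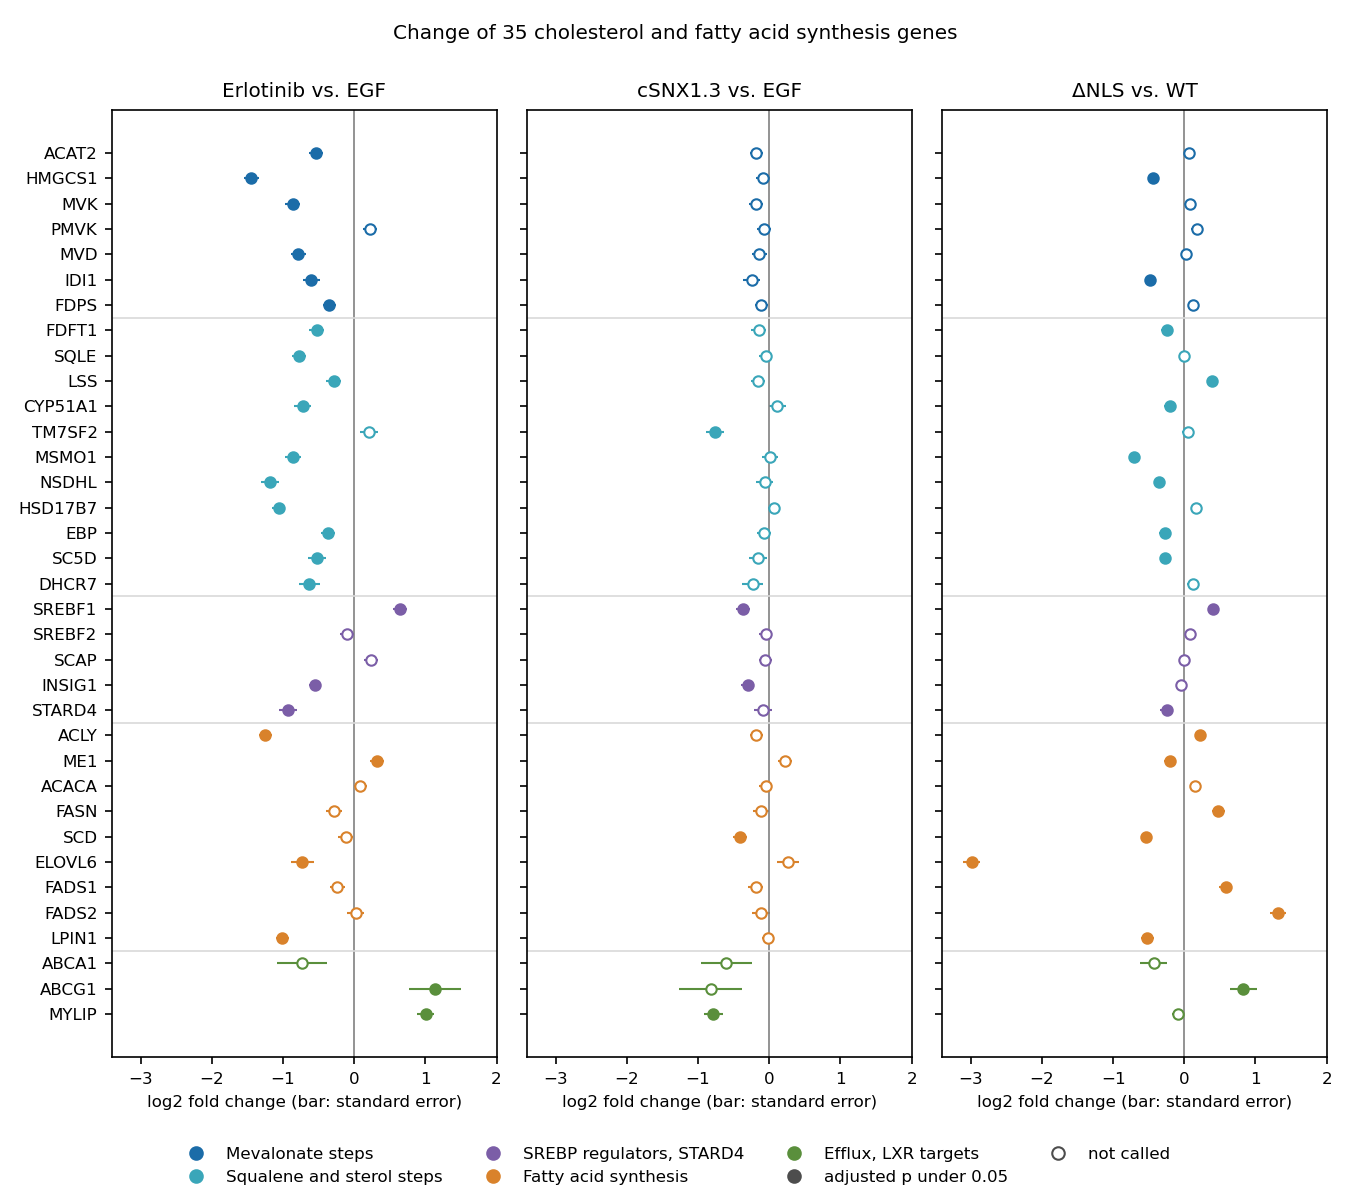
Log2 fold change of each of the 35 members (x axis) in erlotinib vs. EGF, cSNX1.3 vs. EGF and ΔNLS vs. WT, with genes in rows grouped by role; bars are standard errors and filled points have an edgeR adjusted p under 0.05. With erlotinib 16 of 18 sterol step genes sit below 0, with cSNX1.3 5 members are called, and in the ΔNLS line ELOVL6 lies at -2.99.

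The regulators moved in both directions. SREBF1, which encodes the SREBP factor tied most to fatty acid genes, rose from 149, 149 and 155 CPM with EGF to 254, 196 and 253 with erlotinib (log2 fold change 0.64, SE 0.10, edgeR adjusted p = 7.75e-05). STARD4, a cytosolic sterol carrier and a known SREBP target, fell from 56.2, 54.6 and 62.2 to 25.2, 36.2 and 29.3 CPM (log2 fold change -0.92, SE 0.13, edgeR adjusted p = 2.6e-05). SREBF1 was thus higher in all 3 erlotinib libraries while STARD4 was lower in all 3. INSIG1, which retains SCAP and is itself induced by SREBPs, fell from 254, 283 and 264 to 176, 190.5 and 178 CPM (log2 fold change -0.55, SE 0.09, edgeR adjusted p = 0.000111). SREBF2, which encodes the SREBP factor tied most to sterol genes, and SCAP were not called, with log2 fold changes of -0.10 and 0.24 and adjusted p of 0.399 and 0.0584 by edgeR.

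The fatty acid genes differed among themselves. ACLY, which makes cytosolic acetyl-CoA from citrate for both branches, fell from 763, 732 and 751 CPM with EGF to 332, 312 and 298 with erlotinib (log2 fold change -1.25, SE 0.09, edgeR adjusted p = 2.74e-08). LPIN1, a phosphatidate phosphatase of triglyceride synthesis, fell from 145, 128 and 146 to 68.0, 70.0 and 69.0 CPM (log2 fold change -1.01, SE 0.09, edgeR adjusted p = 3.19e-07). They were 2.37-fold and 2.01-fold lower, and no library overlapped. ELOVL6, which elongates palmitate, was at 5.75, 7.25 and 6.99 CPM with EGF and 3.76, 4.87 and 3.42 with erlotinib (log2 fold change -0.73, SE 0.16, edgeR adjusted p = 0.00195). ME1, malic enzyme and a source of NADPH, was higher (0.32). The core enzymes ACACA, which makes malonyl-CoA, and FASN, fatty acid synthase, were not called, and neither were the desaturases SCD, FADS1 and FADS2. Their log2 fold changes ran from -0.28 (FASN, edgeR adjusted p = 0.0535) to 0.09 (ACACA).

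Of the exporters ABCG1 and ABCA1 only ABCG1 was called higher with erlotinib, and MYLIP, which limits uptake, was also higher. MYLIP rose from 13.8, 12.1 and 12.6 CPM with EGF to 21.8, 26.7 and 28.2 with erlotinib (log2 fold change 1.003, SE 0.12, edgeR adjusted p = 9.43e-06). ABCG1 rose from 0.657, 0.42 and 0.666 to 1.69, 1.15 and 0.952 CPM, at 11 to 18 and 27 to 57 counts per library (log2 fold change 1.13, SE 0.36, edgeR adjusted p = 0.0179). Both groups of libraries were separate for each gene, but ABCG1 rests on few counts. ABCA1, at 13 to 27 counts in these libraries, was not called, at 1.11, 0.916 and 0.74 and 0.385, 0.573 and 0.705 CPM (log2 fold change -0.73, SE 0.35, edgeR adjusted p = 0.103).

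Of the 25 calls, 22 held in each alternative. LSS was lost without erlotinib replicate 2 or 3 or EGF replicate 1 or 3 (edgeR adjusted p 0.0639 to 0.148), ME1 without erlotinib replicate 2 or EGF replicate 1 (0.0658 to 0.0906), and ABCG1 without erlotinib replicate 1 or EGF replicate 2 (0.069 to 0.107). With offsets for GC content and transcript length 8 members were higher and 20 lower, and of the 25 only LSS was not called.

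**Figure D2:**
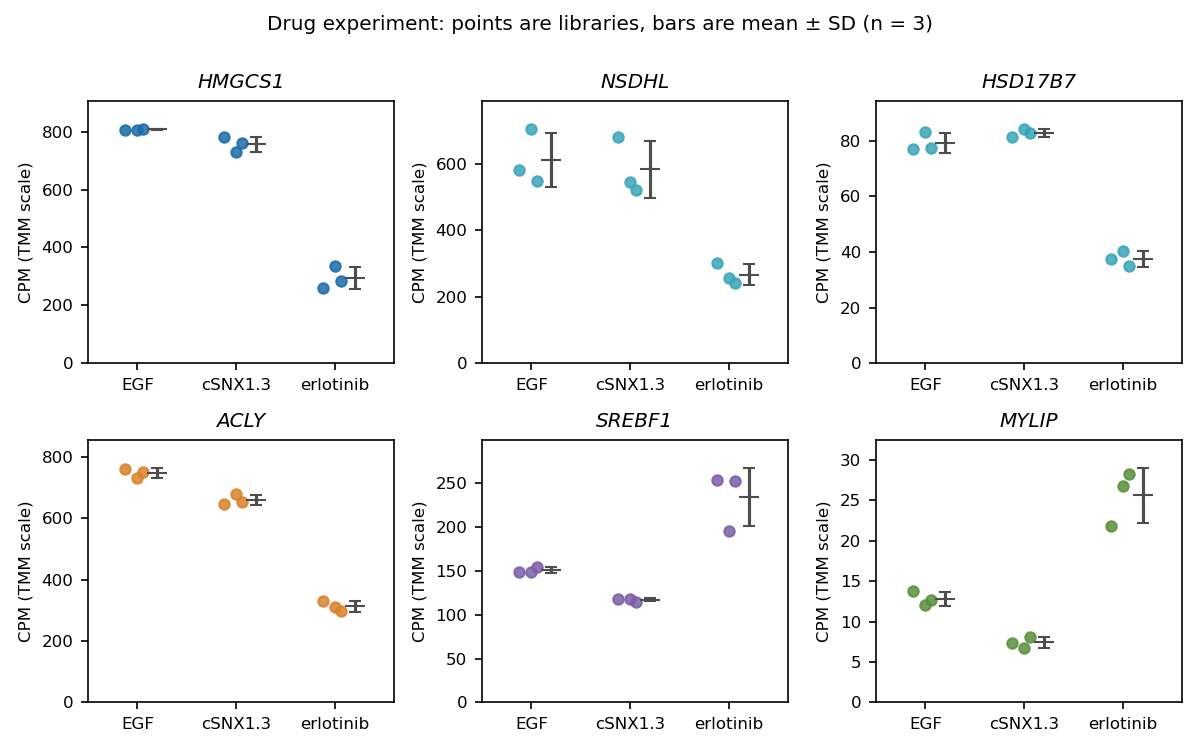
Levels of 6 members in the drug experiment: y axis, CPM on the TMM scale from 0; points, single libraries; bars, mean ± SD (n = 3). HMGCS1, NSDHL, HSD17B7 and ACLY lie near the EGF level with cSNX1.3 and far below it with erlotinib, while SREBF1 and MYLIP are highest with erlotinib and lowest with cSNX1.3.

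A wider list of 26 pathway genes, written alongside the members, was counted in the same fit: of 25 tested, 7 were lower and 4 higher with erlotinib (median -0.07). TMEM97, a sterol-regulated membrane protein, fell from 107, 111 and 99.4 to 48.7, 46.6 and 40.9 CPM (log2 fold change -1.21, SE 0.09, edgeR adjusted p = 4.07e-08). ACSS2, which makes acetyl-CoA from acetate, fell from 334, 380.2 and 347 to 246, 216 and 220.0 CPM (log2 fold change -0.63, SE 0.09, edgeR adjusted p = 3.69e-05). Both were lower in every erlotinib library than in any EGF library. Of 15 genes of fatty acid oxidation and its control, 14 were tested, with 4 higher and 1 lower. Over all genes tested 22.8% were called higher and 21.2% lower, and no result about either list is read from these counts. PDK4, a kinase that limits pyruvate use, rose from 0.944, 1.26 and 1.44 to 2.34, 2.45 and 2.40 CPM (log2 fold change 0.98, SE 0.23, edgeR adjusted p = 0.00237), and ACAA2, a thiolase of beta-oxidation, from 41.3, 48.7 and 40.5 to 64.0, 62.3 and 67.5 CPM (log2 fold change 0.58, SE 0.10, edgeR adjusted p = 0.000149). ANGPTL4, a secreted inhibitor of lipoprotein lipase, had 4 counts over the erlotinib libraries and 25 over the EGF libraries, a ratio of 0.143 (95% exact interval 0.0363 to 0.415, counting error only), and was called lower (edgeR adjusted p = 0.00511). With 12, 4 and 9 counts in the EGF libraries and 1, 2 and 1 with erlotinib, ANGPTL4 passed the filter only through the cSNX1.3 libraries.

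cSNX1.3 vs. EGF asked what the peptide that blocks nuclear entry did to the same genes. Of the 35 members 5 were called, all lower: TM7SF2, MYLIP, SREBF1, SCD and INSIG1. The median over all members was -0.12, and 30 of 35 had a log2 fold change below 0. Of the genes tested 2.69% were called lower and 3.38% higher, with a median of 0.002 and 49.6% below 0. This comparison and erlotinib vs. EGF share the EGF libraries. No library was given the control peptide that the paper used in other assays. The paper also considers it probable that cSNX1.3 affects further protein interactions. Effects of blocked nuclear entry and other effects of the peptide cannot be told apart here.

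TM7SF2 fell from 69.6, 76.8 and 69.9 CPM with EGF to 48.8, 40.3 and 38.6 with cSNX1.3 (log2 fold change -0.76, SE 0.13, edgeR adjusted p = 0.0015). MYLIP fell from 13.8, 12.1 and 12.6 to 7.37, 6.76 and 8.13 CPM (log2 fold change -0.79, SE 0.13, edgeR adjusted p = 0.00142). These 2 genes had the largest differences among the called members and held in each alternative. SCD, the desaturase that makes oleate and the most abundant member per length, fell from 2518, 2609.5 and 2543 to 1936, 1921 and 1888 CPM (log2 fold change -0.41, SE 0.10, edgeR adjusted p = 0.0199). SREBF1 fell from 149, 149 and 155 to 118, 118 and 115 CPM (log2 fold change -0.36, SE 0.10, edgeR adjusted p = 0.038), and INSIG1 from 254, 283 and 264 to 234, 201 and 213 CPM (log2 fold change -0.30, SE 0.09, edgeR adjusted p = 0.0491). The 3 cSNX1.3 libraries lay below the 3 EGF libraries for each of the 5 genes. SCD was lost without EGF replicate 1 or 3 or cSNX1.3 replicate 2 or 3 (edgeR adjusted p 0.06 to 0.0818), SREBF1 without EGF replicate 1 or 3 or any cSNX1.3 replicate (0.0568 to 0.143), and INSIG1 without any EGF replicate or cSNX1.3 replicate 2 or 3 (0.0905 to 0.203). Without EGF replicate 1, EGF replicate 3, cSNX1.3 replicate 2 or cSNX1.3 replicate 3, 2 members were called.

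The other 17 sterol step genes were not called with cSNX1.3. They had log2 fold changes from -0.25 (IDI1) to 0.12 (CYP51A1), and their intervals of 2 SE on each side reached no further than -0.53 (DHCR7) and 0.35 (CYP51A1). HMGCS1 was at 781, 729.6 and 760.1 CPM with cSNX1.3 (log2 fold change -0.09, SE 0.10, edgeR adjusted p = 0.689), NSDHL at 682, 545 and 523 (log2 fold change -0.06, SE 0.12, edgeR adjusted p = 0.837). A fall of the size seen with erlotinib therefore lay outside the interval of each of these 2 genes. ACLY was at 647, 678 and 655 CPM (log2 fold change -0.18, SE 0.09, edgeR adjusted p = 0.285), below each EGF library but not called. ABCG1 and ABCA1 had log2 fold changes of -0.82 and -0.60, with wide SEs of 0.44 and 0.35 at 4 to 17 counts per cSNX1.3 library. Of the wider list 1 of 25 was called, ACSL1, an acyl-CoA synthetase, which fell from 306, 328 and 315 to 258, 248 and 248 CPM (log2 fold change -0.33, SE 0.09, edgeR adjusted p = 0.0348). The 14 oxidation genes tested had an edgeR adjusted p of 0.0551 or more. Over all genes tested 2.69% were called lower and 3.38% higher.

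cSNX1.3 vs. erlotinib gave the direct test of the difference between the drugs. Of the members, 20 were called in favour of cSNX1.3 and 7 of erlotinib, with a median of 0.30, while 27.6% of genes were called higher and 28.5% lower. Of the 18 sterol step genes, 15 were called with the higher level in the cSNX1.3 libraries. HMGCS1 differed by 1.36 on the log2 scale (SE 0.10), MVK by 0.68, MVD by 0.65, HSD17B7 by 1.13, and NSDHL by 1.119. The fatty acid genes ACLY (1.07), LPIN1 (0.99) and ELOVL6 (0.99) and the sterol carrier STARD4 (0.84) were also higher with cSNX1.3. Lower with cSNX1.3 were MYLIP, 3.46-fold (log2 fold change -1.79, SE 0.13, edgeR adjusted p = 1.27e-08), ABCG1 (log2 fold change -1.95, SE 0.40, edgeR adjusted p = 0.000598), SREBF1 (log2 fold change -1.01, SE 0.10, edgeR adjusted p = 4.18e-07), TM7SF2 (log2 fold change -0.97, SE 0.13, edgeR adjusted p = 9.67e-06), SCD (-0.29), PMVK (-0.29) and SCAP (-0.29). SREBF1 and MYLIP were called on opposite sides of EGF, higher with erlotinib and lower with cSNX1.3. Not called were LSS, SREBF2, ME1, ACACA, FASN, FADS1, FADS2 and ABCA1. SCAP stood at 73.9, 66.4 and 65.5 CPM with cSNX1.3 and 94.8, 76.1 and 79.0 with erlotinib.

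The smaller of these differences depended on single libraries. FDPS, INSIG1, PMVK, IDI1, SC5D, SCAP, EBP, DHCR7 and SCD lost their call when 1 library was left out, at an edgeR adjusted p of 0.0532 to 0.149, and each of the 3 erlotinib and 3 cSNX1.3 libraries cost at least 2 of them. The other 18 calls held in each alternative in which the gene was tested; ABCG1 was not tested with at least 10 counts in every library. In the wider list 7 of 25 were higher and 7 lower, among them TMEM97 (0.93) and MBTPS1, a protease that cleaves SREBPs (-0.66). TMEM97 was at 92.2, 86.8 and 81.9 CPM and MBTPS1 at 139.5, 136 and 131 with cSNX1.3, and MBTPS1 at 214, 209 and 216 with erlotinib. Of the 14 oxidation genes tested, 3 were called in favour of cSNX1.3 and 7 of erlotinib. Over all genes tested 27.6% were called higher with cSNX1.3 and 28.5% lower. ANGPTL4 was at 0.961, 0.709 and 1.02 CPM with cSNX1.3, PDK4 at 1.37, 1.29 and 1.17 and ACAA2 at 41.9, 36.0 and 35.4. The call of ANGPTL4 in favour of cSNX1.3 is of a gene that passed the filter only through the cSNX1.3 libraries, where it was highest.

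ΔNLS vs. WT compared the lines given EGFR with the changed and the wildtype nuclear localization signal, both with endogenous EGFR knocked down. EGFR was also higher in every ΔNLS library than in any WT library. Effects of the changed signal, of EGFR level and of other differences between the lines cannot be told apart here. Of the 9 fatty acid genes 8 were called, 4 lower and 4 higher, and they held the largest fall (ELOVL6) and the largest rise (FADS2) of the 35 members. Of the 18 sterol step genes 8 were lower and 1 higher, with a median of 0.02. Over all members 13 were lower and 7 higher, with a median of 0.0023, while 21% of the 15805 genes tested were called lower and 20.4% higher, with a median of 0.0062. With offsets for GC content and transcript length 9 members were lower and 10 higher.

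ELOVL6 stood at 20.7, 17.2 and 18.2 CPM in the WT line and 2.22, 2.56 and 2.28 in the ΔNLS line, 7.94-fold lower (log2 fold change -2.99, SE 0.12, edgeR adjusted p = 5.19e-11). FADS2 rose from 7.04, 7.27 and 7.94 to 20.9, 16.3 and 18.4 CPM (log2 fold change 1.32, SE 0.11, edgeR adjusted p = 1.02e-07). FADS1 rose from 20.04, 17.3 and 17.8 to 28.1, 24.9 and 29.4 CPM (log2 fold change 0.58, SE 0.09, edgeR adjusted p = 9.41e-05). FADS1 and FADS2 encode the desaturases of polyunsaturated fatty acid synthesis and overlap on chromosome 11, where FADS1 lies within the span of FADS2 on the opposite strand, with 5.57% and 5.11% of their exon bases shared with other genes. FADS2 also shares exon bases with FEN1, on the same strand. Counts made without strand cannot tell reads of the shared bases apart. For all 3 genes the lines were separate in every library. SCD fell from 2635, 2583 and 2539.6 to 1807, 1759 and 1777 CPM (log2 fold change -0.54, SE 0.07, edgeR adjusted p = 2.75e-05), and LPIN1 from 102, 79.2 and 108 to 71.2, 66.4 and 64.0 CPM (log2 fold change -0.52, SE 0.10, edgeR adjusted p = 0.000381). FASN rose from 1186, 965 and 1143 to 1644, 1423 and 1526 CPM (log2 fold change 0.48, SE 0.09, edgeR adjusted p = 0.000408), a change that was 0.19 with offsets for GC content and length (edgeR adjusted p = 0.0224). ACLY (0.22) was higher and ME1 (-0.21) lower, and ACACA was not called (0.15, edgeR adjusted p = 0.1).

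**Figure D3:**
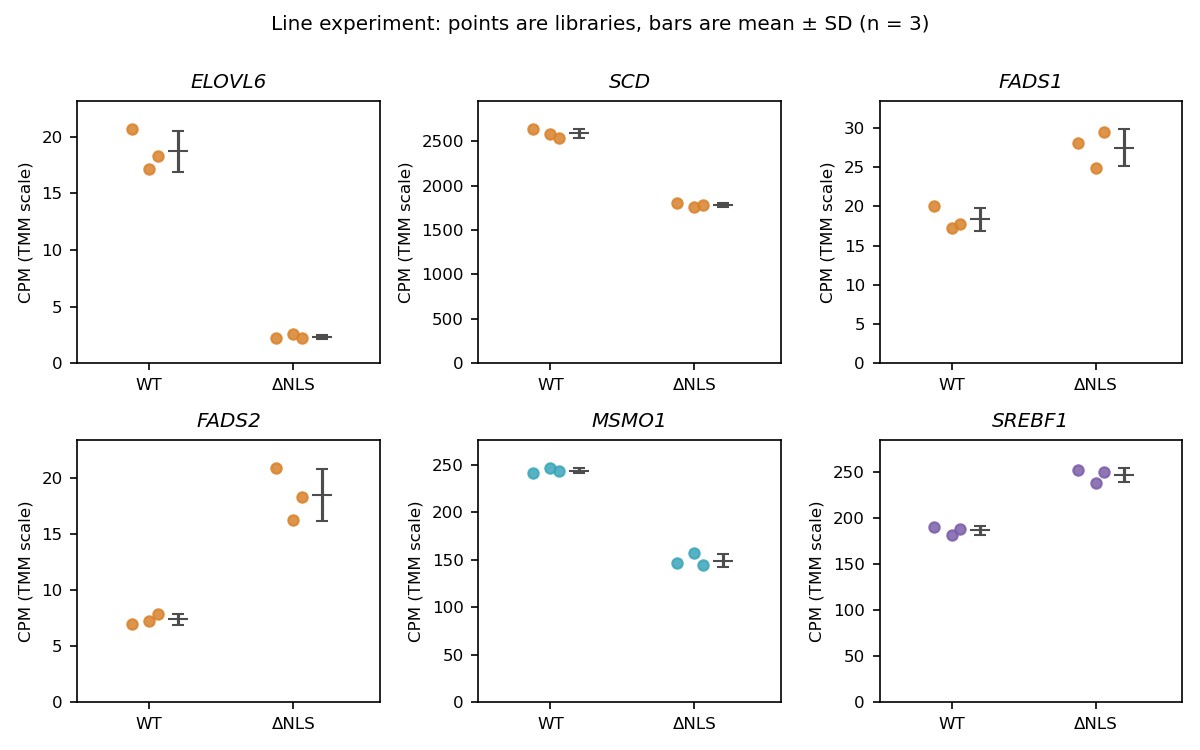
Levels of 6 members in the WT and ΔNLS lines: y axis, CPM on the TMM scale from 0; points, single libraries; bars, mean ± SD (n = 3). ELOVL6, SCD and MSMO1 are lower in all 3 ΔNLS libraries than in any WT library, and FADS1, FADS2 and SREBF1 are higher.

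In the sterol steps MSMO1 had the largest difference, from 241, 247 and 243 CPM in the WT line to 147, 157 and 144 in the ΔNLS line (log2 fold change -0.71, SE 0.07, edgeR adjusted p = 3.67e-07). IDI1 fell from 342, 352 and 345 to 235, 269 and 238 CPM (log2 fold change -0.48, SE 0.07, edgeR adjusted p = 5.73e-05), and HMGCS1 from 370.5, 324 and 379.9 to 267, 269.9 and 259 CPM (log2 fold change -0.43, SE 0.07, edgeR adjusted p = 0.000182). These 3 falls were each larger than the spread between libraries, and no library overlapped. NSDHL fell from 366, 420.2 and 372 to 329, 284 and 296 CPM (log2 fold change -0.35, SE 0.08, edgeR adjusted p = 0.00199), and LSS rose from 152, 128 and 143 to 194, 179 and 183 CPM (log2 fold change 0.39, SE 0.07, edgeR adjusted p = 0.000459). FDFT1, EBP, SC5D and CYP51A1 were called lower with log2 fold changes between -0.27 and -0.21. The 9 not called, among them MVK, MVD, SQLE, HSD17B7 and DHCR7, ranged from 0.0023 to 0.18. Among the regulators SREBF1 rose from 191, 182 and 188 to 252, 238 and 250.4 CPM (log2 fold change 0.40, SE 0.06, edgeR adjusted p = 0.000109), which was 0.19 with offsets for GC content and length (edgeR adjusted p = 0.0122), and STARD4 fell from 46.6, 44.5 and 47.1 to 34.4, 44 and 37.8 CPM (log2 fold change -0.25, SE 0.09, edgeR adjusted p = 0.0323). SREBF2, SCAP and INSIG1 were within 0.1 of 0. ABCG1 rose from 1.92, 2.75 and 1.99 to 4.73, 3.54 and 3.52 CPM (log2 fold change 0.83, SE 0.19, edgeR adjusted p = 0.00189), MYLIP was not called (-0.09), and ABCA1 was not called (-0.43).

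Of the 20 calls, 13 held in each alternative. Without ΔNLS replicate 3, 13 members were called, and CYP51A1, EBP, FDFT1, SC5D, STARD4, ACLY and ME1 were lost. CYP51A1 was also lost without ΔNLS replicate 1 or 2 or WT replicate 1 or 2, ME1 without ΔNLS replicate 2 or WT replicate 1 or 2, STARD4 without ΔNLS replicate 1 or WT replicate 1 or 3, FDFT1 and EBP without ΔNLS replicate 2, and ACLY without ΔNLS replicate 1. Over all of these the edgeR adjusted p ran from 0.0594 (SC5D) to 0.205 (CYP51A1). CYP51A1, SC5D, STARD4 and ME1 were also lost with offsets for GC content and length. In the wider list 9 of 26 were lower and 5 higher. ACSL1 fell from 305, 319 and 291 to 197, 187 and 196 CPM (log2 fold change -0.66, SE 0.07, edgeR adjusted p = 9.88e-07), ACSL4, which prefers polyunsaturated fatty acids, from 117, 125 and 113 to 71.1, 84.2 and 79.8 (log2 fold change -0.59, SE 0.08, edgeR adjusted p = 1.31e-05), and MBTPS2, the second SREBP protease, from 38.2, 42.9 and 37.5 to 26.1, 26.0 and 27.6 (log2 fold change -0.58, SE 0.08, edgeR adjusted p = 2.88e-05). Of 14 oxidation genes tested 4 were higher and 2 lower. Over all genes tested 20.4% were called higher and 21% lower. PLIN2, a coat protein of lipid droplets, rose from 57.4, 62.5 and 59.3 to 89.4, 81.2 and 83.2 CPM (log2 fold change 0.50, SE 0.07, edgeR adjusted p = 2.98e-05), HADH from 86.4, 92.1 and 82.7 to 112, 108 and 110.3 (log2 fold change 0.34, SE 0.07, edgeR adjusted p = 0.000813), and HADHB fell from 149, 165 and 147 to 118, 112 and 114 (log2 fold change -0.42, SE 0.07, edgeR adjusted p = 0.000145). HADH and HADHB both act in beta-oxidation.

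Erlotinib vs. EGF and ΔNLS vs. WT share no library, so their calls can be set side by side. Lower in both were 11 members, HMGCS1, IDI1, FDFT1, CYP51A1, MSMO1, NSDHL, EBP, SC5D, STARD4, ELOVL6 and LPIN1, which are 11 of the 21 lower with erlotinib and 11 of the 13 lower in the ΔNLS line. Among the 11, the ΔNLS calls of CYP51A1, FDFT1, EBP, SC5D and STARD4 were lost without ΔNLS replicate 3. Those of CYP51A1, SC5D and STARD4 were also lost with offsets for GC content and length. Of the 15216 genes tested in both fits 4.57% were called lower in both, which is 21.1% of those lower with erlotinib and 21.9% of those lower in the ΔNLS line. SREBF1 and ABCG1 were higher in both. LSS and ACLY were lower with erlotinib and higher in the ΔNLS line, and ME1 the reverse. The difference between the 2 effects was tested in 1 fit of all 15 libraries (single effects are from the separate fits), in which 44.7% of 16524 genes were called in either direction. There 22 members differed, 18 with a higher log2 fold change in ΔNLS vs. WT than in erlotinib vs. EGF. The largest of these were ACLY (difference 1.47, SE 0.11, edgeR adjusted p = 1.49e-09), FADS2 (difference 1.31, SE 0.17, edgeR adjusted p = 2.56e-06) and HSD17B7 (difference 1.24, SE 0.11, edgeR adjusted p = 1.21e-08). HMGCS1, lower in both, was lower by less in the ΔNLS line (difference 1.02, SE 0.13, edgeR adjusted p = 1.71e-06). ELOVL6 (difference -2.25, SE 0.21, edgeR adjusted p = 2.5e-08), MYLIP (difference -1.08, SE 0.14, edgeR adjusted p = 3.7e-06), ME1 and SCD had a lower value in ΔNLS vs. WT. For MSMO1 the effects of -0.86 and -0.71 differed by 0.16 (2 SE interval -0.12 to 0.45, not called), and for SREBF1 those of 0.64 and 0.40 by -0.23 (-0.47 to 0.01, not called).

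**Figure D4:**
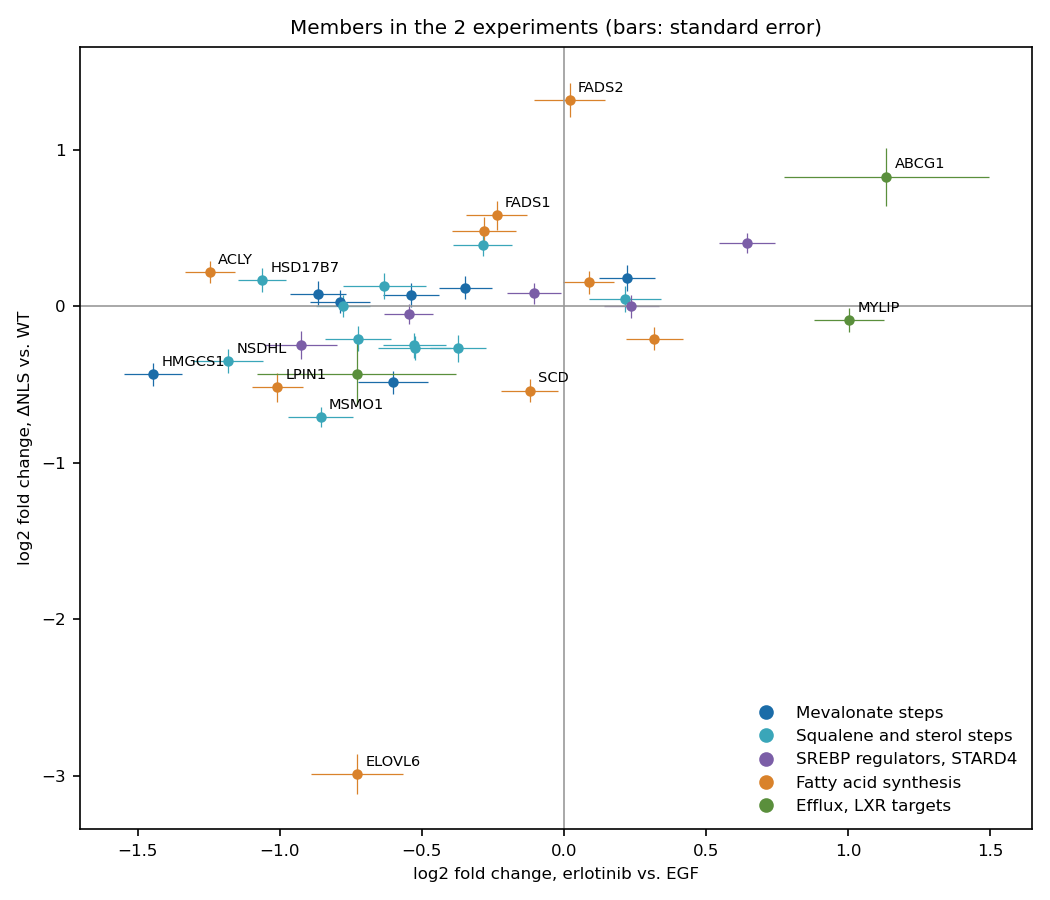
Log2 fold change of the 35 members in erlotinib vs. EGF (x axis) and ΔNLS vs. WT (y axis), coloured by role, with standard errors as bars and the members farthest from 0 named. Most sterol step genes lie left of 0 and near 0 on the y axis, ELOVL6 lies at -0.73 and -2.99, and FADS2 at 0.02 and 1.32.

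The cSNX1.3 and ΔNLS effects, both meant to reduce nuclear EGFR, were compared in the same fit, in which 23.1% of genes were called. There 13 members differed. ELOVL6 (difference -3.25, SE 0.20, edgeR adjusted p = 1.93e-10), MSMO1 (difference -0.71, SE 0.14, edgeR adjusted p = 0.00081), LPIN1 and ME1 had a lower log2 fold change in the ΔNLS line, and FADS2 (difference 1.44, SE 0.17, edgeR adjusted p = 1.63e-06), ABCG1 (difference 1.65, SE 0.46, edgeR adjusted p = 0.0128), TM7SF2 (difference 0.81, SE 0.17, edgeR adjusted p = 0.00118), SREBF1 (difference 0.77, SE 0.12, edgeR adjusted p = 6.2e-05), FADS1, MYLIP, FASN, LSS and ACLY a higher one. SREBF1 was called lower with cSNX1.3 and higher in the ΔNLS line. SCD was called lower in both, by -0.41 and -0.54, and the difference of -0.12 was not called (2 SE interval -0.36 to 0.12). PMVK, SREBF2, SCAP, ACACA and ABCA1 were called in none of the 3 comparisons with a control.

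Levels per kb of exon placed SCD at the top of the 35 members in the EGF group (487 CPM per kb) and in the WT line (493). NSDHL (306), FDFT1 (285), DHCR7 (281) and MVD (233) followed in the EGF group. ABCA1 (0.0812), ABCG1 (0.0949), ELOVL6 (0.916), FADS2 (1.16) and FADS1 (2.04) were the lowest. The baselines of the experiments also differed. For 17 of the 18 sterol step genes every WT line library lay below every EGF library, at 0.317 to 1.03 times the EGF mean over the 18, whereas SREBF1 (1.24), MYLIP (2.37), ELOVL6 (2.81), ABCA1 (2.91) and ABCG1 (3.82) lay above it. Of all 16524 genes in the fit of 15 libraries, 27.5% had every WT line library below every EGF library and 28.2% above. The knockdown, the introduced EGFR, the EGF treatment and the experiment cannot be told apart here, and no test was made.

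Some of these counts may be affected by reads of other genes, since strand was not used and some overlapping genes lie on the same strand. The gene that overlaps EBP lies on its strand, as do some of those that overlap CYP51A1. Exon bases shared with other genes made up 74.1% for CYP51A1, 37.7% for HMGCS1 (an antisense gene), 36.4% for EBP, 22.2% for ACAT2, 18.6% for FDPS and 15% for IDI1. Pseudogenes named after the gene number 8 for FDPS, 3 each for IDI1 and CYP51A1, 2 for HSD17B7 and 1 for SCD. Their part in the results was not tested.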

How the data were processed

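RNA of MDA-MB-468 cells was measured in 15 libraries, 3 in each of 5 groups taken from the sample labels. The authors trimmed the reads with TrimGalore, aligned them to GRCh38 with STAR, counted read pairs per Ensembl gene with featureCounts without strand, and deposited raw counts, not normalized. The annotation release is not given in the sources used here, and names, coordinates and exon lengths came from GENCODE 44 (61399 of 61552 IDs matched). Library totals were 22915676 to 35900649. Replicates differed by more than sampling noise (chi-square per degree of freedom 2.69 to 24.5), so none was a copy.

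Tests used edgeR 4.0.16 (R 4.3.3) with TMM scaling, filterByExpr, robust quasi-likelihood F test, Benjamini-Hochberg adjustment over all genes tested, threshold 0.05. The 9 drug libraries (15738 genes) and the 6 line libraries (15805 genes) were fitted separately, and differences between effects in 1 fit of all 15 (16524 genes). SE was the log2 fold change divided by the square root of F, and intervals are 2 SE. In simulated data 64 of 67 genes changed 2-fold were found for erlotinib vs. EGF and 66 of 67 in ΔNLS vs. WT, and 47 and 60 of 67 changed 1.5-fold. Of 185 and 212 calls, 10 and 20 were of unchanged genes. Far fewer genes were changed in the simulation than were called in the data, and all were above a minimum level in the control group. It therefore does not measure how often changes of genes with few counts are found. cSNX1.3 vs. EGF was not simulated.

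The members and lists were chosen with earlier results of these data known. Libraries' values are given for the called members with the 3 largest changes of each class in each comparison, and other members by counts and ranges. Some genes of the wider pathway list that this rule selects are not reported here. LPIN1, SCD and FASN in ΔNLS vs. WT and MSMO1, PMVK, TM7SF2, ABCA1 and ACLY where not among these were added after their values were seen. The alternatives tried were a stricter adjusted p (under 0.01), omission of each replicate in turn, blocking on replicate number, other sets of libraries, scaling by DESeq2's size factors, the test of DESeq2 1.42.0, no filter on low counts, and a minimum of 10 counts in every library. Offsets for GC content and transcript length were added after seeing the data.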

Additional observations from a re-analysis of the deposited data

How the results depend on the processing

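No call of a member changed direction in any alternative. Over the alternatives the calls of 22 of 25 members held in erlotinib vs. EGF, 2 of 5 in cSNX1.3 vs. EGF, 18 of 27 in cSNX1.3 vs. erlotinib and 13 of 20 in ΔNLS vs. WT, where ABCG1 in the drug comparisons was not tested with at least 10 counts in every library. At an adjusted p under 0.01, cSNX1.3 vs. EGF kept 2 member calls. With 1 library left out, edgeR called 23 to 26 members in erlotinib vs. EGF, 2 to 4 in cSNX1.3 vs. EGF, 21 to 24 in cSNX1.3 vs. erlotinib, 13 to 20 in ΔNLS vs. WT, and 22 to 23 and 12 to 14 in the differences of the ΔNLS effect from the erlotinib and cSNX1.3 effects; the cause was not tested. For cSNX1.3 vs. EGF over all genes, 956 were called, against 470 at an adjusted p under 0.01, 1444 in the fit of all 15 libraries, 1667 with offsets for GC content and length, and 526 to 892 with 1 library left out. Fits of only the 2 groups compared were not made for the differences of effects, and for ΔNLS vs. WT they are the fit reported.

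Same-numbered libraries correlated over 0.1 in 2 of 9 pairs of the drug experiment (r from -0.2 to 0.248) and in 0 of 3 pairs of the line experiment (-0.096 to -0.03). Libraries of different number reached further in the drug experiment. EGF replicate 2 had r = 0.375 with cSNX1.3 replicate 1 and -0.324 with cSNX1.3 replicate 3. Not every library correlated best with its own number, so the numbers were not taken as pairing the samples. With the replicate block 26, 4, 26 and 16 members were called in the 4 comparisons, and 22 and 13 in the differences of effects. At 3 libraries a group, 47 of 67 simulated 1.5-fold changes were found for erlotinib vs. EGF, so smaller changes can be missed, and ABCG1 and ABCA1 rest on few counts.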
